A study of Rattus norvegicus with 9 samples.

Results

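The mitochondrial ribosome, or mitoribosome, is built from ribosomal RNA encoded in mitochondrial DNA and from proteins that are all encoded in the nucleus and imported. It translates only the messenger RNAs of mitochondrial DNA, which code for core subunits of the respiratory chain and of ATP synthase. Its large subunit holds the site of peptide bond formation and the exit tunnel, and its small subunit reads the messenger RNA. Some of its proteins have bacterial homologues and others are found only in mitochondria. The genes described here are its protein genes: rows of the count table whose symbol is Mrpl or Mrps followed by a number and whose biotype is protein coding, with 1 row kept per symbol, the one with more counts. They number 72 of the 31125 gene rows, 45 for the large subunit, 26 for the small subunit and Mrps36. Mrps36, also named Kgd4, carries a ribosomal name but is a component of the 2-oxoglutarate dehydrogenase complex of the citric acid cycle. Mrps18a and Mrps30 are counted with the large subunit, where their proteins sit in spite of their names.

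The rule matched 73 rows, because Mrps17 had a pair of rows that overlap on the same strand. Without regard to case or biotype 79 names matched. The other rows were 3 that are not protein coding (Mrpl52, listed as a long non-coding RNA, and the pseudogenes Mrps21l and Mrpl42-ps2) and 3 protein-coding rows with lower-case names, mrpl9, mrpl11 and mrpl24, which the rule leaves out.

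RNA came from the femurs of male rats, 1 library per sample and 3 libraries per group, all at day 7. Sham rats had sham surgery. GPI rats had an injury of the distal femoral growth plate, the cartilage at the knee end of the bone from which it lengthens. GMTT rats had the same injury and then a hydrogel that the labels call GMTT, whose parts the series title gives as GelMA (methacrylated gelatin), TPGS and tea polyphenols. The sources used here give neither strain nor age and do not say whether tissue of several animals was pooled, so p-values reflect only how these libraries vary.

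Binding motifs of ETS-family factors (the family of GABPA, also called NRF2), of NRF1 and of YY1 are known from many nuclear genes for mitochondrial proteins. The RefSeq table of promoters (build GRCr8, 250 bases before to 50 after each start) held 58 of the 72 genes, Mrps36 under its name Kgd4, with 60 starts in all, since Mrpl14 and Mrps21 have 2 each. It held no entry for Mrpl13, Mrpl15, Mrpl16, Mrpl19, Mrpl21, Mrpl35, Mrpl38, Mrpl43, Mrps12, Mrps22, Mrps24, Mrps28, Mrps34 and Mrps35. Shown here is Mrps18b, picked because its window holds all 3 sets of letters given below. Beside it are 2 genes with large differences between injured and sham femurs and 2 with next to none on the TMM scale described below. By library sizes alone these 2, Mrps26 and Mrpl36, were called lower in GPI than in Sham, at -1.24 and -1.18 (log2). Each window is given 5′ to 3′ on the gene's own strand. Exact matches to the ETS letters CCGGAAG, the YY1 letters AAGATGGC and the NRF1 letters CGCATGCG, or to their reverse complements, are in capitals. The windows are chr2:33612348-33612647 (minus strand) for Mrps36, chr7:32028473-32028772 (minus strand) for Mrpl42, chr20:2842756-2843055 (plus strand) for Mrps18b, chr3:138222074-138222373 (plus strand) for Mrps26 and chr1:31795072-31795371 (minus strand) for Mrpl36.
Mrps36: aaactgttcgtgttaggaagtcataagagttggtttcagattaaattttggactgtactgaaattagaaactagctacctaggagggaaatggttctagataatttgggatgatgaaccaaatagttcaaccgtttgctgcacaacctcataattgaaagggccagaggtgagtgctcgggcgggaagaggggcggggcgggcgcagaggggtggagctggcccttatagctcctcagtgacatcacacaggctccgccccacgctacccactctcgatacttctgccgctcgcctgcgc
Mrpl42: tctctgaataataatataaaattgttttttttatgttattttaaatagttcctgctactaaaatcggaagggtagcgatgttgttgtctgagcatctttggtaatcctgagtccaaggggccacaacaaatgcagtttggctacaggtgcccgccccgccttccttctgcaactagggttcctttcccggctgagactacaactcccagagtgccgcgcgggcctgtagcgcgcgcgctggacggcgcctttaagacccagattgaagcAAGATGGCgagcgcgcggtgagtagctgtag
Mrps18b: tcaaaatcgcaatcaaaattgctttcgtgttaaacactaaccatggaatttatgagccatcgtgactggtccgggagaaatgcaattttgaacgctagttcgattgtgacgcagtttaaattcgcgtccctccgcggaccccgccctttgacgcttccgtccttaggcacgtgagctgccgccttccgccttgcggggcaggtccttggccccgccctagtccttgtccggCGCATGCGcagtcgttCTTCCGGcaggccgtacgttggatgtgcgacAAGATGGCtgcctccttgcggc
Mrps26: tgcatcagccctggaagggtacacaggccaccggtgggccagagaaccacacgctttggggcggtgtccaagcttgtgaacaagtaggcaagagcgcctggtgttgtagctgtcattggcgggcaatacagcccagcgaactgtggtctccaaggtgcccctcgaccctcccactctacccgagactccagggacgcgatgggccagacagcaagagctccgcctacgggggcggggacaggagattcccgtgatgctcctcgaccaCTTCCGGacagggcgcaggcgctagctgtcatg
Mrpl36: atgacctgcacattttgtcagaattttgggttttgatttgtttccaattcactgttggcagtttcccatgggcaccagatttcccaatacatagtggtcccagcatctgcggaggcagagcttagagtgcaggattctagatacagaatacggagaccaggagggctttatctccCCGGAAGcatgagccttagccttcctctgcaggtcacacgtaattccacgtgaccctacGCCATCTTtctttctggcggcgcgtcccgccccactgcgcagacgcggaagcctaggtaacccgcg

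The Mrps18b window held all 3 motifs, for which it was picked. That of Mrpl42 held YY1 alone, that of Mrpl36 ETS and YY1, that of Mrps26 ETS alone, and that of Mrps36 none. Over the 60 starts, 19 windows (31.7%) held the ETS letters on either strand, against 8.75% of all 33469 windows in the table and 15.4% of the 12457 windows of protein-coding genes tested here. The YY1 letters stood in 14 windows (23.3%), against 3.17% of all windows and 4.74% of those of tested coding genes. The NRF1 letters stood in 6 (10.0%), against 1.66% and 3.15%, and the TATA letters TATAAA in 8 (13.3%), against 14.2% and 7.68%. An ETS match followed by a YY1 match can share the letters AAG, and each motif was counted on its own. A match is a description of the letters and not a measured binding site. Among members, those with the ETS letters had a median log2 fold change in GPI against Sham (TMM scale) of 1.00 and those without of 1.08. These medians were 1.32 with and 0.99 without the YY1 letters, and 0.72 with and 1.05 without the NRF1 letters.

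Libraries held 15927429 to 19715997 counts, and all 72 genes passed the filter on low counts. The groups differed widely in what those counts were. The 24 skeletal muscle markers took 0.359% to 0.379% of counts in Sham, 17.1% to 17.4% in GPI and 3.25% to 3.46% in GMTT, with none at 0 in any group. The 15 erythroid markers took 8.40% to 9.34%, 0.256% to 0.262% and 4.56% to 4.97%, and the 15 neutrophil markers 1.10% to 1.18%, 0.000780% to 0.000898% and 1.35% to 1.40%, again with none at 0. The 7 fat markers took 0.00794% to 0.00837%, 0.0468% to 0.0476% and 0.0200% to 0.0207%, with Ucp1, which marks brown fat, at 0 in GMTT, and all 7 were called higher in GPI than in Sham (median 2.95). The 22 proliferation markers took 0.750% to 0.776% in Sham, 0.00806% to 0.00839% in GPI and 0.532% to 0.552% in GMTT. As for the labelled tissue, the 11 bone markers were detected in every group, at 1.01% to 1.08%, 0.508% to 0.541% and 1.39% to 1.53%. The 12 growth plate markers took 0.0282% to 0.0298%, 0.0215% to 0.0217% and 0.0412% to 0.0436%, with Matn1 at 0 in GPI and at 1 count in each of the other groups. In bulk RNA, fewer cells of a type and less RNA per cell cannot be told apart, and the part of these differences in the results that follow was not tested.

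The scale matters for every comparison with GPI. TMM scaling, which assumes that most genes do not differ, gave mean factors of 1.28 (Sham), 0.602 (GPI) and 1.29 (GMTT). The deposited FPKM, which are fragment counts relative to gene length and to a depth, carry a like scaling, with a constant per library of 1.32, 0.604 and 1.30 of the library total. Relative to library totals alone, the median of all 15936 genes tested moved from -0.19 to -1.28 (log2) in GPI against Sham. Fold changes in comparisons with GPI are therefore given on the TMM scale with their values by library sizes alone.

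The injured femurs carried more mitoribosomal protein messenger RNA than the sham femurs on the TMM scale, over nearly the whole set. Of the 72 genes, 67 were called higher in GPI than in Sham and 1 lower (edgeR's quasi-likelihood test, p adjusted by Benjamini and Hochberg's method over all genes tested), where 40.1% of tested genes were called higher and 48.1% lower. Their median log2 fold change was 1.08, beside -0.19 for all genes. By library sizes alone 32 members were called higher and 29 lower, beside 22.1% and 70.3% of all genes, and 24 of the members called higher on the TMM scale were called lower on this one. The members' median was then -0.01, beside -1.28 for all genes. The median level of the 72 genes was 12.6 FPKM in Sham, 28.6 in GPI and 13.6 in GMTT (medians of group means).

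The members did not rise by a common factor. Log2 fold changes ran from -0.47 to 2.91, 41 genes (56.9%) were called at least 2-fold higher, 12 of them (16.7%) at least 4-fold, and 14 lay within 0.5 of 0. Of all genes tested 26.7% were called at least 2-fold and 15.9% at least 4-fold higher. The deposited FPKM of the GPI and Sham libraries did not overlap for 69 of the 72 genes, 68 of them higher in GPI, where 40.8% of all genes tested were higher without overlap and 47.5% lower.

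**Figure D1:**
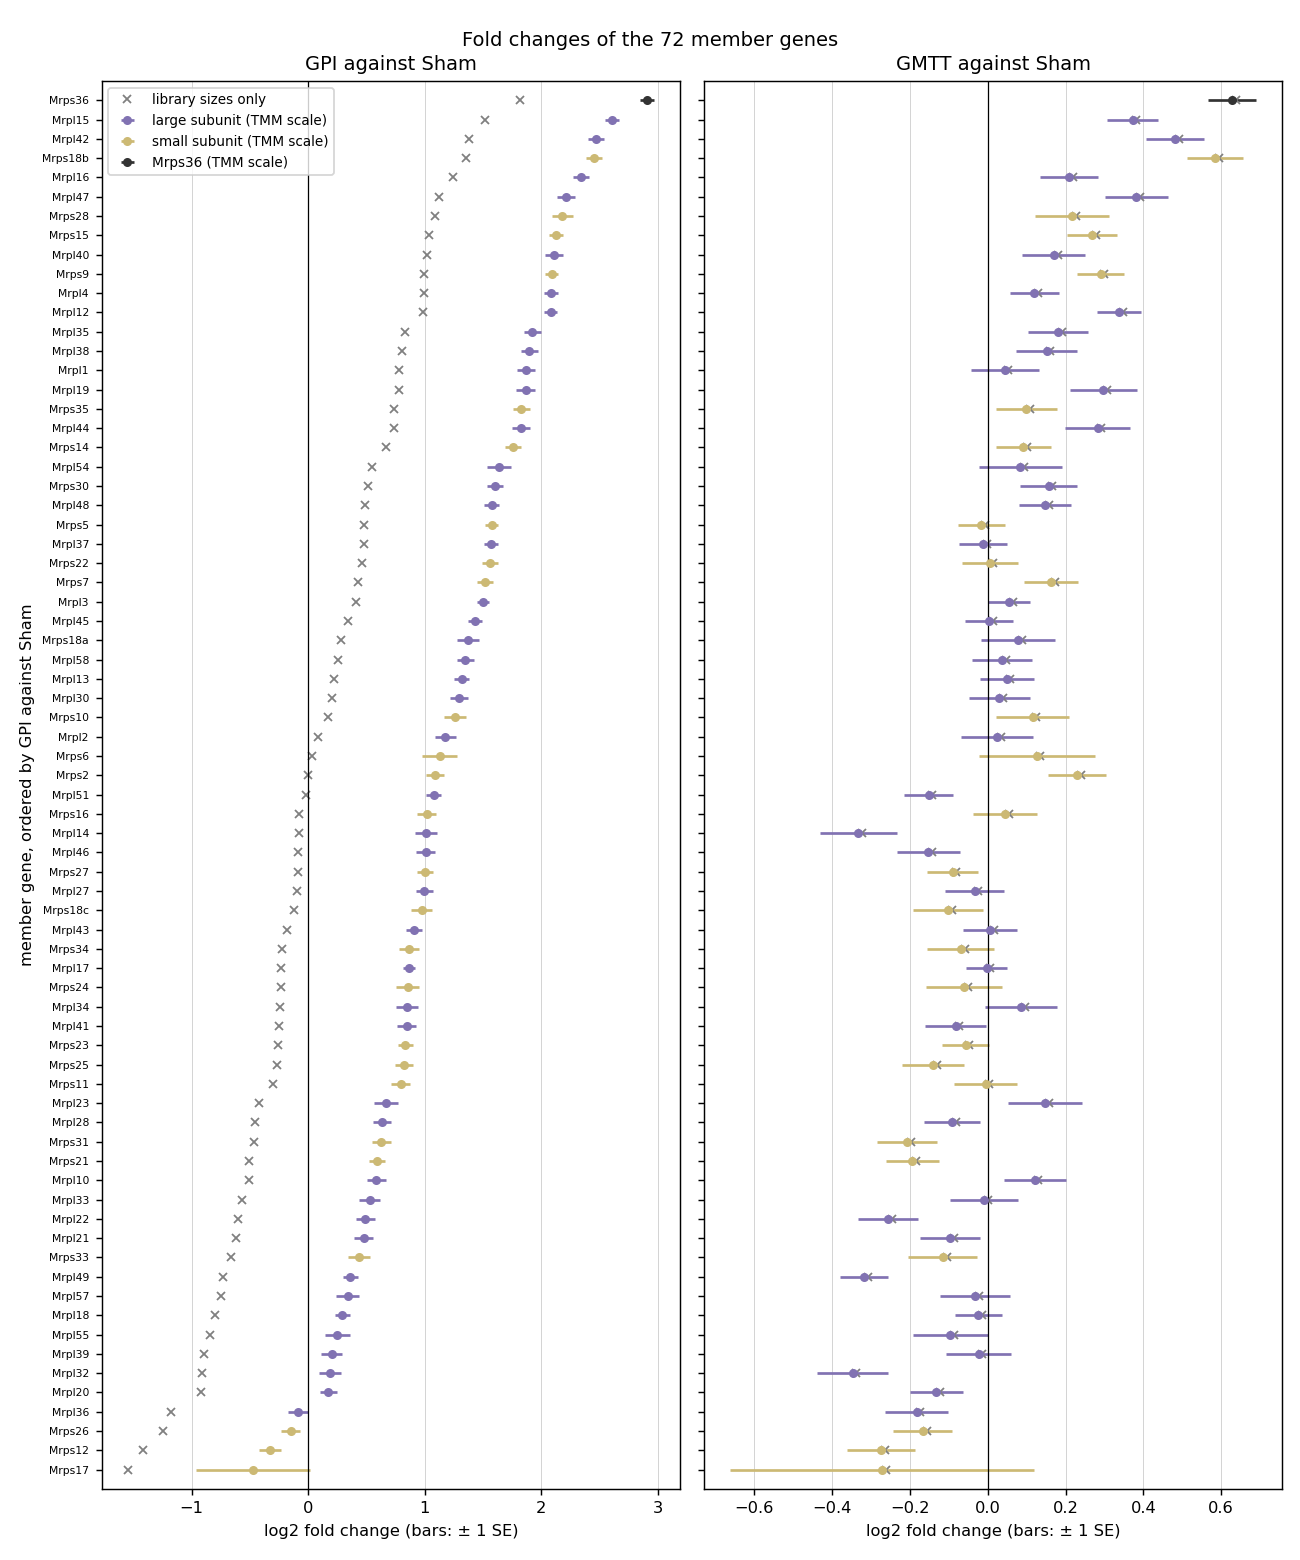
Log2 fold change of each of the 72 genes (edgeR, TMM scale, points with ± 1 SE), in GPI against Sham on the left and in GMTT against Sham on the right, ordered by the left panel, with crosses for the values by library sizes alone. On the left nearly all points lie right of 0 while the crosses lie on both sides of it, and on the right, on a narrower axis, points and crosses lie together between -0.35 and 0.63.

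Of the large subunit, 43 of 45 genes were called higher in GPI than in Sham and the other two were not called, with a median of 1.18; by library sizes alone 22 were higher and 18 lower. Mrpl15, which encodes a protein with a bacterial homologue, showed the largest fold change of the subunit. It lies on chromosome 5 from 14729979 to 14741276, plus strand, in mRatBN7.2, the build named in the submitters' processing notes and the one used for gene positions below. Its level was 7.65, 9.38 and 8.42 FPKM in the Sham libraries, 51.4, 53.5 and 53.9 in GPI and 10.9, 11.0 and 11.8 in GMTT. The GPI libraries stood apart from all others and the other groups did not overlap either. The log2 fold change was 2.61 ± 0.06 (SE; adjusted p = 2.29e-27, edgeR), and 1.51 by library sizes alone.

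Mrpl42 encodes a protein found only in mitochondrial ribosomes and lies on chromosome 7 from 30117977 to 30141639, minus strand. It measured 10.8, 10.7 and 9.87 FPKM in Sham, 55.8, 63.0 and 59.1 in GPI and 15.4, 15.1 and 14.3 in GMTT, with no overlap between any groups. Its log2 fold change in GPI against Sham was 2.47 ± 0.07 (SE; 1.38 by library sizes). Mrpl16, a homologue of a bacterial protein that sits close to the peptidyl transferase centre, stood at 4.18 ± 0.161 FPKM in Sham and 21.6 ± 0.825 in GPI (SD, n = 3), and the log2 fold change was 2.34 ± 0.07 (SE; 1.25 by library sizes). Mrpl47, whose protein lies near the exit of the peptide tunnel, stood at 2.11 ± 0.0988 and 10.0 ± 0.126 FPKM (SD, n = 3), and the log2 fold change was 2.22 ± 0.07 (SE; 1.12 by library sizes).

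Mrpl12 encodes the protein of the stalk that recruits translation factors, and the free protein is also known to bind the mitochondrial RNA polymerase. It gave 21.2, 21.4 and 21.4 FPKM in Sham, 93.2, 91.9 and 91.5 in GPI and 29.0, 26.3 and 27.3 in GMTT. The libraries of each group lay close together and no groups overlapped. The log2 fold change in GPI against Sham was 2.08 ± 0.06 (SE; 0.99 by library sizes).

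Other large-subunit genes with separate known roles stood between the median and the upper quartile of the members (1.78). Mrpl45, whose protein faces the inner membrane at the tunnel exit, had a log2 fold change of 1.43 ± 0.06 (SE; 0.34 by library sizes). Mrpl58, also known as ICT1, encodes a peptidyl-tRNA hydrolase that releases stalled ribosomes and is also an integral part of the subunit, and its value was 1.35 ± 0.07 (SE; 0.26 by library sizes). Mrps30, a large-subunit gene with a small-subunit name, had 1.61 ± 0.07 (SE; 0.51 by library sizes). All 3 were called higher on either scale.

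By mean FPKM over all 9 libraries, the highest levels per length were those of Mrpl17, Mrpl54, Mrpl12 and Mrpl20, all of the large subunit; the order differed between groups, and Mrpl17 came first in each. Mrpl17 gave 54.7, 54.0 and 54.9 FPKM in Sham, 99.8, 106 and 98.4 in GPI and 56.7, 55.4 and 54.6 in GMTT. Its GPI libraries were the high ones, while Sham and GMTT overlapped. The log2 fold change in GPI against Sham was 0.86 ± 0.05 (SE), and -0.23 by library sizes alone, where it was called lower. Mrpl54 gave 27.6, 28.2 and 38.9 FPKM in Sham, so that the third Sham library stood above the other two, against 94.2, 105 and 102 in GPI and 36.4, 34.9 and 31.1 in GMTT. Its log2 fold change in GPI against Sham was 1.64 ± 0.10 (SE; 0.55 by library sizes).

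At the other end of the large subunit, Mrpl36 and Mrpl32 were not called in GPI against Sham. Mrpl36 encodes one of the smallest proteins of the subunit and gave 15.0, 16.0 and 15.8 FPKM in Sham, 14.3, 16.9 and 13.6 in GPI and 14.2, 14.7 and 13.2 in GMTT. Sham and GPI overlapped, and the log2 fold change was -0.09 ± 0.09 (SE; adjusted p = 0.360, edgeR), but -1.18 by library sizes alone, where it was called lower. Mrpl32, whose precursor is known to be matured by the mitochondrial m-AAA protease before it joins the subunit, gave 15.9, 16.3 and 16.3 FPKM in Sham, 19.4, 16.9 and 20.2 in GPI and 12.0, 12.4 and 14.5 in GMTT. Each GPI library lay above each Sham library, yet the log2 fold change of 0.19 ± 0.10 (SE) had an adjusted p of 0.0714 (edgeR), and the value by library sizes alone was -0.91. Mrpl20, at 45.4 FPKM in Sham and 52.4 in GPI (means of 3), had a log2 fold change of 0.17 ± 0.07 (SE; adjusted p = 0.0254, edgeR) and -0.92 by library sizes alone. That call was lost with no filter on low counts (0.15) and without Sham replicate 1 (0.13), GPI replicate 2 (0.16) or GPI replicate 3 (0.14). Mrpl57, the lowest after Mrps17 by mean FPKM over all 9 libraries though not in Sham or GMTT alone, had 0.34 ± 0.10 (SE), 0.22 and no call without GPI replicate 2, and -0.75 by library sizes alone.

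**Figure D2:**
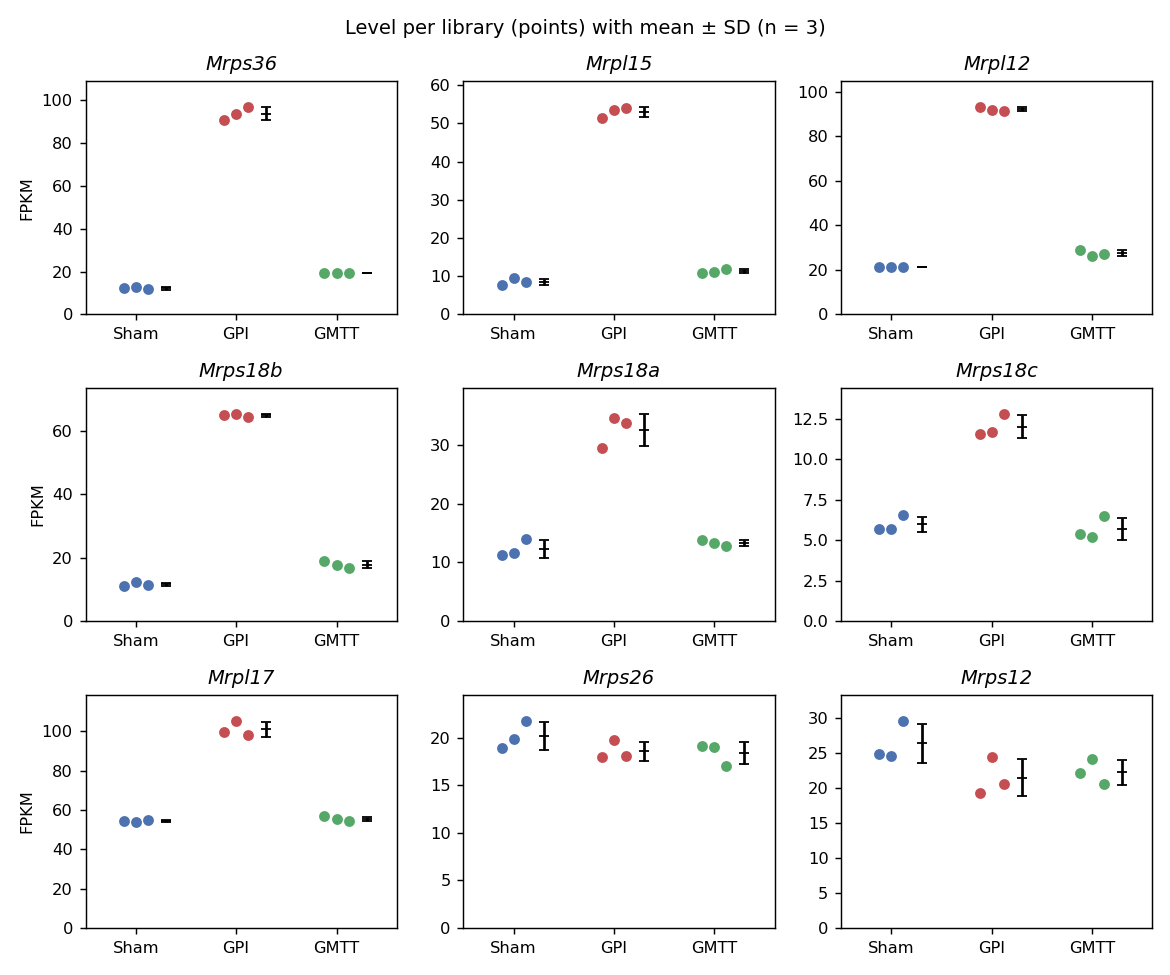
Deposited FPKM of 9 members in each library (points, blue for Sham, red for GPI, green for GMTT) with mean ± SD (n = 3) beside them, each panel with its own axis from 0. Mrps36, Mrpl15, Mrpl12 and Mrps18b separate GPI widely from the other groups, Mrpl17 less so, and the panels of Mrps26 and Mrps12 show no such gap.

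Of the small subunit, 23 of 26 genes were called higher and 1 lower in GPI than in Sham, with a median of 1.01; by library sizes alone 9 were higher and 11 lower. The 3 paralogues of a single bacterial protein, Mrps18a, Mrps18b and Mrps18c, differed in size of change; their proteins occupy different places in the mitoribosome, that of Mrps18a in the large subunit. Mrps18b lies on chromosome 20 from 2838030 to 2844260, plus strand, and gave 11.2, 12.2 and 11.4 FPKM in Sham, 65.0, 65.2 and 64.3 in GPI and 19.0, 17.6 and 16.7 in GMTT. No groups overlapped, and the log2 fold change in GPI against Sham was 2.45 ± 0.07 (SE; 1.36 by library sizes). Mrps18a gave 11.3, 11.6 and 14.1 FPKM in Sham, 29.6, 34.7 and 33.7 in GPI and 13.8, 13.3 and 12.8 in GMTT. Here Sham and GMTT overlapped, and the log2 fold change in GPI against Sham was 1.37 ± 0.09 (SE; 0.28 by library sizes). Mrps18c gave 5.71, 5.70 and 6.53 FPKM in Sham, 11.6, 11.7 and 12.8 in GPI and 5.39, 5.19 and 6.50 in GMTT, a log2 fold change in GPI against Sham of 0.97 ± 0.09 (SE), which fell to -0.12 and was not called by library sizes alone. Differences between the 3 paralogues were not tested.

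Mrps12, the homologue of a bacterial protein of the decoding centre, was the 1 member called lower on the TMM scale. It lies on chromosome 1 from 84025899 to 84028780, minus strand. It gave 24.9, 24.5 and 29.6 FPKM in Sham, 19.3, 24.4 and 20.6 in GPI and 22.2, 24.1 and 20.5 in GMTT. The highest GPI library lay just below the lowest Sham library. The log2 fold change in GPI against Sham was -0.33 ± 0.10 (SE; adjusted p = 0.00259, edgeR; -1.42 by library sizes). Mrps26, which has no bacterial homologue, gave 18.9, 19.9 and 21.8 FPKM in Sham, 18.0, 19.7 and 18.1 in GPI and 19.2, 19.0 and 17.0 in GMTT. Its groups overlapped, and the log2 fold change of -0.15 ± 0.08 (SE) was not called (adjusted p = 0.0938, edgeR), but it was called without Sham replicate 1 (-0.20) and by library sizes alone (-1.24). Mrps17 had 90 counts in the 9 libraries together and 0.193 to 0.550 FPKM over all libraries. Its log2 fold change was -0.47 ± 0.49 (SE; adjusted p = 0.361, edgeR), but -1.55 by library sizes alone, where it was called lower. Its second row, not used here, held 47 counts, so the counts of this gene may be divided between the rows.

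Mrps36, which belongs to the 2-oxoglutarate dehydrogenase complex, headed the whole set. It lies on chromosome 2 from 31870551 to 31880730, minus strand. Its levels were 12.1, 13.0 and 11.6 FPKM in Sham, 90.9, 93.5 and 96.9 in GPI and 19.4, 19.1 and 19.4 in GMTT. The 3 groups were fully separate, with GMTT between the others and nearer to Sham. The log2 fold change in GPI against Sham was 2.91 ± 0.06 (SE; adjusted p = 1.52e-29, edgeR; 1.81 by library sizes).

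The members were also divided by whether their proteins have bacterial homologues. Mrps18a and Mrps18b were counted as mitochondria-specific although they are paralogues of a bacterial protein, and Mrps18c was counted with the homologues. Mrpl55, left unclassified, and Mrps36 were in neither class. In GPI against Sham 27 of 28 mitochondria-specific members were called higher, with a median of 1.21, and 38 of 42 members with bacterial homologues, with a median of 1.05 and 1 called lower. By library sizes alone 14 of the former were higher and 11 lower, and 17 of the latter were higher and 17 lower. Within the large subunit all 18 mitochondria-specific genes were called higher on the TMM scale, with a median of 1.40. Of its genes with bacterial homologues 24 of 26 were, with a median of 1.01. Within the small subunit the order of the medians was reversed. There 9 of 10 mitochondria-specific genes were called higher (median 0.85), and 14 of 16 with homologues (median 1.11), with 1 lower. By library sizes alone the mitochondria-specific genes were 11 higher and 5 lower in the large subunit, and 3 and 6 in the small. Those with homologues were 11 and 12 in the large subunit, and 6 and 5 in the small. The log2 fold change was larger in longer genes, with a Spearman rho of 0.34 over the 72 genes, which share their libraries. By gene length as the deposited table gives it, medians were 0.86 in the 24 shortest genes (622 to 1233 bases), 1.29 in the middle 24 and 1.37 in the 24 longest (1776 to 5137 bases).

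GMTT against GPI shared its GPI libraries with the comparison above, so its values are not independent of it. The treated femurs had lower levels of nearly all members on the TMM scale. By edgeR's quasi-likelihood test 68 of 72 genes were called lower and 0 higher, where 40.2% of tested genes were called lower and 45.7% higher. At an unadjusted p below 0.05 there were also 0 higher, and DESeq2 called 67 lower and 0 higher. The median log2 fold change was -1.15, beside 0.12 for all genes, 41 genes were at least 2-fold lower and 3 at least 4-fold, as were 24.4% and 12.2% of all genes. By library sizes alone 32 were called lower and 27 higher, beside 18.9% and 72.2% of all genes, with a members' median of -0.05.

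The 3 genes at least 4-fold lower were Mrps36 at -2.28 ± 0.06, Mrpl15 at -2.24 ± 0.06 and Mrpl16 at -2.13 ± 0.07 (log2 fold change ± SE; -1.18, -1.13 and -1.03 by library sizes). Mrpl42 followed at -1.99 ± 0.07, Mrpl4 at -1.97 ± 0.06 and Mrps28, a small-subunit gene, at -1.97 ± 0.08 (SE). By library sizes these were -0.89, -0.86 and -0.86. Mrpl12 fell by 1.74 and Mrps18b fell by 1.87 on the TMM log2 scale, and both stayed lower by library sizes alone, at -0.64 and -0.77. Mrps12, Mrps17, Mrps26 and Mrpl36 were not called, at 0.05, 0.20, -0.02 and -0.10. By library sizes all 4 were called higher in GMTT than in GPI, at 1.16, 1.29, 1.09 and 1.01. The smallest called differences were those of Mrpl39, which encodes a protein related to threonyl-tRNA synthetase, at -0.23 ± 0.09 (SE), and of Mrpl20 at -0.31 ± 0.07 (SE). By library sizes these were 0.88 and 0.80, and the call of Mrpl39 was lost with DESeq2 (-0.23) and without GPI replicate 2 (-0.17), GMTT replicate 1 (-0.16) or GMTT replicate 2 (-0.21).

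GMTT against Sham compares treated with uninjured femurs, and here the scalings were close to each other. None of the members differed by 2-fold, where 9.19% of all genes were called at least 2-fold higher and 2.44% lower. By edgeR's test 15 of 72 were called higher, 8 lower and 49 not, where 29.5% of tested genes were called higher and 28.3% lower. The median log2 fold change was 0.02, beside -0.0031 for all genes, and values ran from -0.35 to 0.63. By library sizes alone 16 were called higher and 7 lower. The number called lower was 5 without Sham replicate 2.

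Mrps36 again headed the set, with 12.2 ± 0.679 FPKM in Sham and 19.3 ± 0.168 in GMTT (SD, n = 3) and a log2 fold change of 0.63 ± 0.06 (SE; adjusted p = 3.25e-10, edgeR). Mrps18b followed at 0.58 ± 0.07, Mrpl42 at 0.48 ± 0.07, Mrpl47 at 0.38 ± 0.08, Mrpl15 at 0.37 ± 0.07 and Mrpl12 at 0.34 ± 0.06 (SE). In GPI against Sham, which shares the Sham libraries, these 6 were at 2.91, 2.45, 2.47, 2.22, 2.61 and 2.08 in the same order. Skeletal muscle markers were higher in GMTT than in Sham as well, 24 of 24, with a median of 3.07. The part of muscle in the 6 values was not tested.

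The lowest values in GMTT against Sham were those of Mrpl32 at -0.35 ± 0.09, Mrpl14 at -0.33 ± 0.10 and Mrpl49 at -0.32 ± 0.06 (SE). Mrpl49 gave 25.9, 25.4 and 25.9 FPKM in Sham and 21.0, 20.1 and 22.2 in GMTT, with no overlap, and an adjusted p of 4.43e-05 (edgeR). Mrpl14 gave 9.77, 9.45 and 12.3 FPKM in Sham and 8.80, 9.48 and 7.26 in GMTT, which overlapped, and its call was lost without Sham replicate 3 (-0.20), the library with the highest value. Mrps12 at -0.27 ± 0.09 (SE) was also lost without Sham replicate 3 (-0.18), and Mrpl22, whose protein lines the exit tunnel, at -0.26 ± 0.08 (SE) without GMTT replicate 1 (-0.20). Mrps18a at 0.08 ± 0.10, Mrps18c at -0.10 ± 0.09, Mrpl45 at 0.00 ± 0.06 and Mrpl58 at 0.04 ± 0.08 (SE) were not called, and Mrps30 at 0.16 ± 0.07 (SE) was not called either (adjusted p = 0.0655, edgeR) but was without Sham replicate 3 (0.23).

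The members were next set beside the messenger RNAs that the mitoribosome translates. The 72 genes together took 0.196% ± 0.00532 of all counts in the Sham libraries, 0.233% ± 0.00593 in GPI and 0.202% ± 0.00366 in GMTT (SD, n = 3), with each GPI library above all others. The 13 messenger RNAs of mitochondrial DNA, which the mitoribosome translates, took 3.83% ± 0.185, 26.2% ± 0.755 and 6.05% ± 0.343. For each count of a member there were thus 19.6 ± 1.30 counts of mitochondrially encoded messenger RNA in Sham, 112 ± 5.64 in GPI and 29.9 ± 2.23 in GMTT (SD, n = 3), a ratio that does not depend on the scaling. The single libraries were 20.0, 20.6 and 18.1 in Sham, 115, 106 and 116 in GPI and 27.8, 29.7 and 32.3 in GMTT, without overlap.

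The nuclear genes of respiratory chain subunits, 30 in the list used and 29 tested, also moved further than the members. All 29 were called higher in GPI than in Sham, with a median log2 fold change of 2.94 and a range of 2.29 to 3.83, and all 29 also by library sizes alone. None of the 72 members lay above that median and 5 lay above its lowest gene. Counts of all 30 genes per member count were 2.64 ± 0.0257 in Sham, 7.79 ± 0.0800 in GPI and 3.30 ± 0.0110 in GMTT (SD, n = 3). In GMTT against Sham 28 of the 29 were called higher, with a median of 0.45, beside 15 of the 72 members and their median of 0.02.

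**Figure D3:**
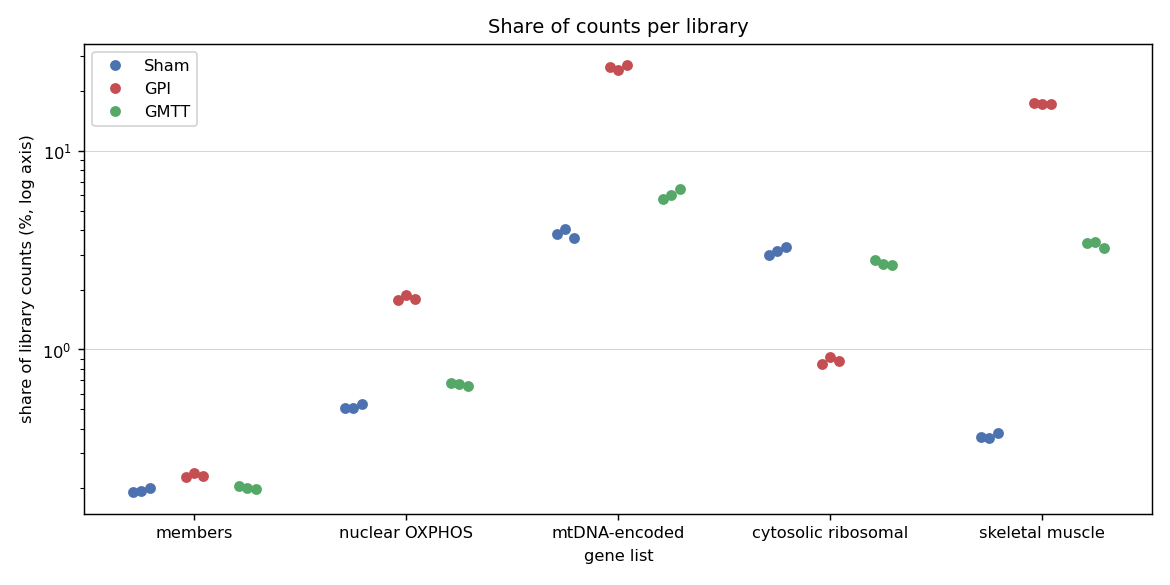
Share of each library's counts (%, log axis) held by the 72 members, nuclear respiratory chain (OXPHOS) genes, mitochondrially encoded messenger RNAs, cytosolic ribosomal protein genes and skeletal muscle markers, 1 point per library. The members stay between 0.19% and 0.24%, while mitochondrially encoded and muscle counts are far higher in GPI and cytosolic ribosomal counts lower.

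The proteins of the cytosolic ribosome, which translates nuclear messenger RNA, went the other way. Of 69 of their genes 63 were called lower in GPI than in Sham and the other 6 were not called, with a median of -0.64, and all 69 were called lower by library sizes alone. With those not tested, 71 such genes gave 16.0 ± 0.284 counts per member count in Sham, 3.78 ± 0.0604 in GPI and 13.5 ± 0.116 in GMTT (SD, n = 3). The balance within the mitoribosome moved far less: large-subunit genes gave 2.03 ± 0.0230 counts per small-subunit count in Sham, 2.08 ± 0.00631 in GPI and 2.04 ± 0.0424 in GMTT (SD, n = 3). The range of the GMTT libraries overlapped that of either other group.

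Of the mitoribosomal genes that carry other names, Ptcd3, Chchd1 and Gadd45gip1 were called higher in GPI than in Sham and Dap3 lower. Chchd1, of the small subunit, had a log2 fold change of 1.25 ± 0.08 and Ptcd3, also of the small subunit, of 1.06 ± 0.06 (SE), which by library sizes were 0.15 and -0.04. Gadd45gip1, of the large subunit, had 0.88 ± 0.08 (SE; -0.22 by library sizes). Dap3, a GTP-binding protein of the small subunit, stood at 11.2 FPKM in Sham, 9.85 in GPI and 9.47 in GMTT (means of 3), with a log2 fold change of -0.21 ± 0.07 (SE; -1.31 by library sizes), as Mrps12 was also lower. The genes mrpl9, mrpl11 and mrpl24, left out by the spelling of their names, were called higher at 0.76, 1.40 and 1.67 on the TMM scale. By library sizes mrpl9 was called lower, at -0.33, and the others higher, at 0.31 and 0.58. A protein-coding row without a symbol, described as L50, was called higher at 1.82 (0.73 by library sizes). Mrpl52, listed as a long non-coding RNA, was not called at -0.15, and was called lower by library sizes at -1.24. In GMTT against GPI Mrpl52 was called higher, at 0.28 (1.38 by library sizes). There mrpl9, mrpl11, mrpl24 and the L50 row were called lower on the TMM scale.

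Genes that serve the mitoribosome were called mostly in the same direction on the TMM scale. Of 14 translation factors 13 were called higher in GPI than in Sham and Mtif3 was not called (0.18, and -0.91 by library sizes), with a median of 1.62, and by library sizes 9 were higher and 3 lower. Gfm1, the elongation factor that moves the ribosome along, led them at 2.65 ± 0.06 (SE; 1.55 by library sizes), and Tufm, which delivers aminoacyl-tRNA, had 1.95 ± 0.06 (SE; 0.86 by library sizes). Of 25 assembly and modification factors 21 were called higher and 3 lower, with a median of 0.65, but by library sizes 7 were higher and 16 lower. Malsu1, which keeps the subunits apart during assembly, had 2.06 ± 0.12, Rbfa, a maturation factor of the small subunit, 1.61 ± 0.08, and Mrm1, a methyltransferase of the large ribosomal RNA, -1.53 ± 0.09 (SE), which by library sizes were 0.96, 0.52 and -2.62.

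Of 14 mitochondrial aminoacyl-tRNA synthetases tested, which charge the tRNAs used in mitochondria, 12 were called higher in GPI than in Sham and 1 lower, with a median of 0.88; by library sizes 4 were higher and 7 lower. Aars2 had 1.87 ± 0.08 and Iars2 1.23 ± 0.06 (SE; 0.77 and 0.13 by library sizes). Of 24 genes that copy, transcribe or process mitochondrial DNA and RNA, 20 were called higher and 3 lower, with a median of 0.91, and by library sizes 8 were higher and 12 lower. Lrpprc, which stabilises mitochondrial messenger RNA, had 2.38 ± 0.05 (SE; 1.28 by library sizes). Tfam, which packages and helps transcribe mitochondrial DNA, had 1.04 ± 0.06, and the polymerase gene Polrmt 0.91 ± 0.10 (SE), which by library sizes were -0.06 and -0.18.

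**Figure D4:**
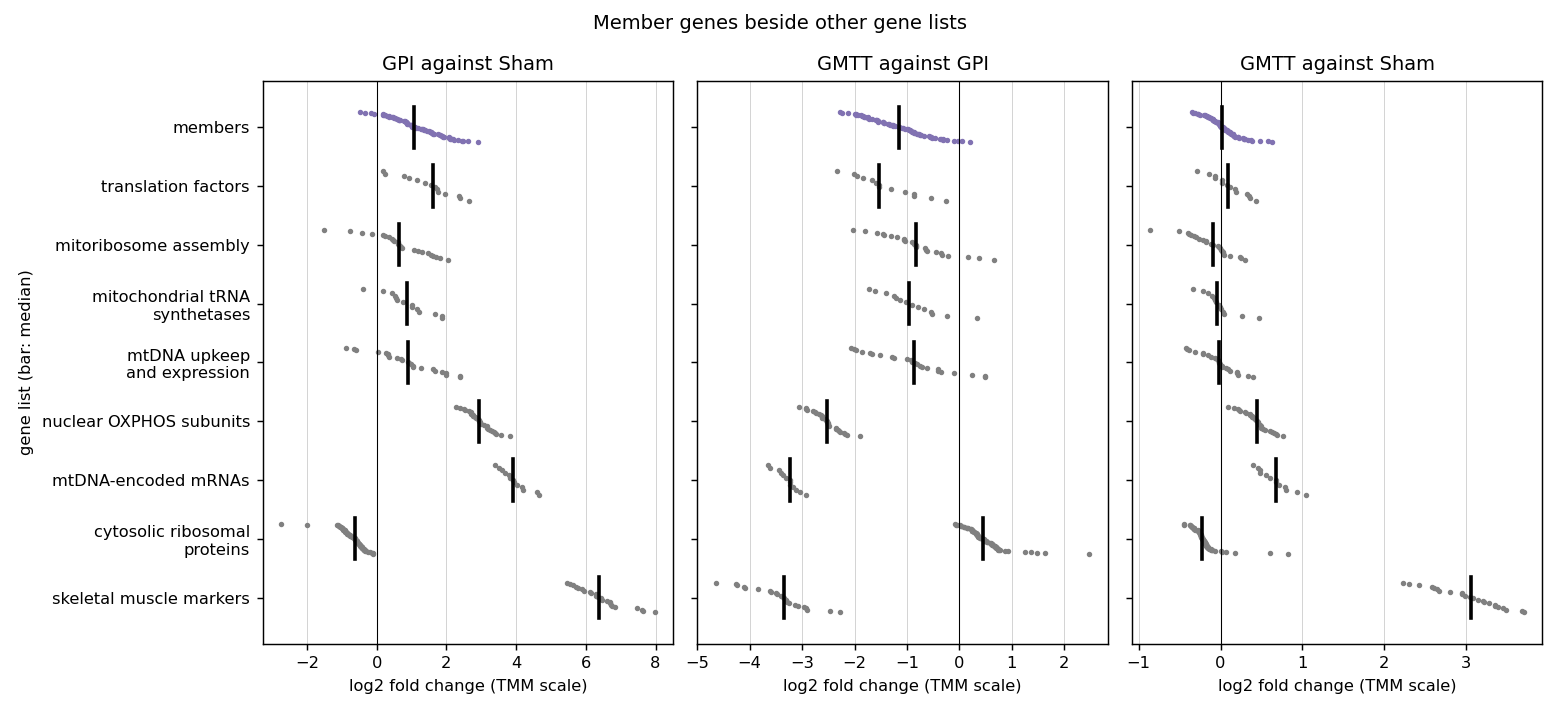
Log2 fold changes (TMM scale) of single genes (points) and their medians (bars) for the members and 8 other gene lists in injured against sham (left), treated against injured (middle) and treated against sham femurs (right), each panel with its own axis. In the left panel the member median of 1.08 lies below those of the nuclear OXPHOS genes (2.94) and mitochondrially encoded messenger RNAs (3.91) and above that of the cytosolic ribosomal protein genes (-0.64).

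The regulators listed for mitochondrial biogenesis split instead of moving together. In GPI against Sham 3 of 10 were called higher and 7 lower, on either scale. Ppargc1a, a coactivator of mitochondrial genes abundant in oxidative muscle, stood at 0.0875 FPKM in Sham, 15.7 in GPI and 0.586 in GMTT (means of 3), a log2 fold change of 7.42 ± 0.15 in GPI against Sham and of 2.68 ± 0.28 in GMTT against Sham (SE; 6.33 and 2.69 by library sizes). The genes of the DNA-binding factors whose motifs are counted above were lower: Nrf1 at -1.98 ± 0.07, Yy1 at -0.85 ± 0.06 and Gabpa at -0.51 ± 0.06 (SE; -3.07, -1.95 and -1.60 by library sizes). Myc, a regulator of ribosome production in dividing cells, was lower as well, at -1.92 ± 0.07 (SE; -3.01 by library sizes).

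Some members share a start region with a neighbouring gene read from the other strand. By the gene positions of the deposited table, a neighbour of any biotype was sought that starts within 1000 bases upstream and reads away from the member. Mrpl46 and Mrps11, which the RefSeq promoter windows place head to head, overlap in those positions and were not counted. Such a neighbour was found for 15 of the 72 members (20.8%), against 1649 of 14398 protein-coding genes tested (11.5%). On the TMM scale these neighbours were called higher in GPI than in Sham in 7 pairs and lower in 8, with a median of -0.47, where their members had a median of 1.00; by library sizes 4 neighbours were called higher and 10 lower. The widest difference was between Mrpl27 and Eme1, a DNA repair nuclease subunit gene whose start lies 44 bases away, at 1.00 and -5.36 (-0.09 and -6.44 by library sizes). Mrpl51 and Ncapd2, a condensin gene of dividing cells, were at 1.08 and -4.75 (-0.02 and -5.84 by library sizes), with 388 bases between their starts. The pairs Mrps18b and Ppp1r10 at 2.45 and -0.53 (1.36 and -1.62 by library sizes), and Mrps18c and Helq at 0.97 and -1.63 (-0.12 and -2.73 by library sizes), also differed. Among pairs whose neighbour was the higher, the widest difference was between Mrpl36 and Ndufs6l1, whose starts lie 35 bases apart. They were at -0.09 and 2.40 (-1.18 and 1.31 by library sizes). In some other pairs both genes are mitochondrial, among them Mrpl47 and the complex I gene Ndufb5 at 2.22 and 3.33 (1.12 and 2.23 by library sizes). Mrps12 and the synthetase gene Sars2 were at -0.33 and 0.57 from starts 206 bases apart (-1.42 and -0.52 by library sizes). In GMTT against GPI, Eme1 was at 5.01 and Ncapd2 at 4.23, where Mrpl27 was at -1.03 and Mrpl51 at -1.23; by library sizes these were 6.09, 5.33, 0.07 and -0.13.

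**Figure D5:**
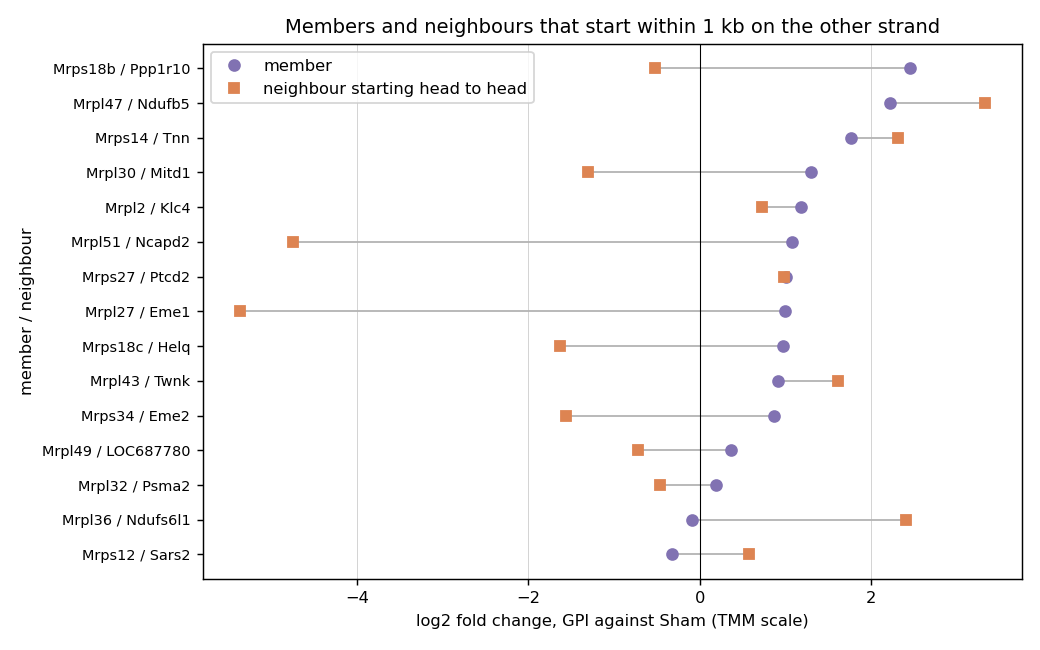
Log2 fold change in GPI against Sham (TMM scale) of 15 members (circles) and of the neighbours that start head to head with them within 1 kb (squares), joined by a line per pair. The lines of Mrpl27 and Eme1 and of Mrpl51 and Ncapd2 are the longest, and several squares lie left of 0 where their circles lie right of it.

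Overlap with other genes limits single values. Of the 72 members 24 (33.3%) overlap a gene on the opposite strand, against 21.4% of protein-coding genes tested, and 7 overlap a gene on their own strand. The libraries are strand-specific by their protocol but the sources used here do not give the strand setting of the counting, and the values of these members are therefore uncertain. Among members described singly above, Mrpl16, Mrpl22, Mrpl42, Mrpl47, Mrpl49, Mrpl57, Mrps18a, Mrps18c and Mrps28 overlap a gene on the opposite strand. Mrpl14, Mrpl27, Mrps17 and Mrps28 overlap one on their own strand. The 43 members without any overlap gave like counts: 39 were called higher and 1 lower in GPI than in Sham, with a median of 1.26, 40 were lower in GMTT than in GPI, and 7 were higher and 5 lower in GMTT than in Sham. Another fit left out the list genes of skeletal muscle, erythroid cells and mitochondrial DNA, with totals and scaling recomputed. It called 68 members higher and 1 lower in GPI than in Sham, with a median of 1.12. That fit left the members' own counts unchanged, so the part of muscle or blood cells in their values was not tested.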

How the data were processed

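Read counts per gene and FPKM were used as the authors deposited them; the deposited FPKM were used for levels. RNA was extracted with TRIzol, poly(A)-selected and made into strand-specific libraries, per the labels' protocols. The build is mRatBN7.2 (submitters' processing notes, as listed with the labels). The sources used here name no aligner or counting program and no strand setting. Counts of all 9 libraries were fitted in 1 model of 3 groups with edgeR 4.0.16 (quasi-likelihood test, robust, 2-sided, TMM scaling, default filter with a minimum count of 10) in R 4.3.3, leaving 15936 genes. The threshold was an adjusted p of 0.05 (Benjamini-Hochberg, over these genes). Precision was limited by 3 libraries per group, with a median biological coefficient of variation of 5.09%. Replicate pairs differed by more than counting noise (chi-square per degree of freedom 1.94 to 4.88). Alternatives were other scalings, filters and fits, DESeq2 1.42.0, limma 3.58.1 on log2 FPKM and leaving out each library. The procedure was tested on simulated data in which few genes differed, as many up as down. That test could not check the TMM scaling in comparisons with GPI, where most genes were called different. Members, gene lists and tests were chosen with earlier results of these data known. Members named were the 6 highest and 6 lowest per contrast, the 4 highest and 2 lowest levels, 8 chosen by role and up to 4 by their head-to-head neighbour; other pairs, windows and values were chosen after they were seen. Other genes named were up to 3 per list with the smallest p in a contrast and 11 chosen by role. Figures were drawn with matplotlib 3.10.9.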

Additional observations from a re-analysis of the deposited data

How the results depend on the processing

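Relative to library sizes alone, 32 members were higher and 29 lower in GPI against Sham with a median of -0.01, and 27 were higher and 32 lower in GMTT against GPI with a median of -0.047. Under that scaling, of the members whose value in the comparison is given above, these changed sign in GPI against Sham: Mrpl20 (-0.92), Mrpl32 (-0.91), Mrps18c (-0.12), Mrpl17 (-0.23), Mrpl57 (-0.75), Mrpl27 (-0.095) and Mrpl51 (-0.017). In GMTT against GPI they were Mrpl20 (0.80), Mrpl39 (0.88), Mrpl36 (1.01), Mrps26 (1.09) and Mrpl27 (0.071). Members named above for another comparison that changed sign were Mrpl39 (-0.89), Mrpl49 (-0.73), Mrpl22 (-0.60) and Mrpl14 (-0.08) in GPI against Sham. In GMTT against GPI such members were Mrpl32 (0.57), Mrpl49 (0.42), Mrpl22 (0.36), Mrps18c (0.028), Mrpl17 (0.24) and Mrpl57 (0.73). Mrps26 also changed sign there with no filter on low counts (0.015). The median in GPI against Sham was 1.14 with median-of-ratios scaling and 1.14 with the 5 CPM filter, and 1.02 with limma on log2(FPKM + 1). In GMTT against GPI it was -1.19 with that filter and -1.06 with limma on log2(FPKM + 1). In GMTT against Sham 5 were lower with median-of-ratios scaling, 4 with DESeq2, 4 with limma on log2(FPKM + 1) and 3 with limma on log2(FPKM + 0.1), against 8. The cause was not tested. Leaving out each library in turn gave 1 to 2 members lower in GPI against Sham (Mrps26 was added without Sham replicate 1), a median of -1.19 to -1.10 in GMTT against GPI, and 5 to 9 lower in GMTT against Sham. Over the same fits the small values of members not called in GMTT against GPI ran from -0.02 to 0.16 for Mrps12, -0.16 to 0.0098 for Mrpl36, -0.040 to 0.033 for Mrps26 and -0.46 to 0.58 for Mrps17, and from -0.026 to 0.039 for Mrpl45 in GMTT against Sham. With the replicate number as a block 68, 68 and 19 members were called, against 68, 68 and 23. Libraries with the same number correlated at -0.15 to 0.06 and those with different numbers at -0.085 to 0.12. These values gave no sign that the numbers pair the samples, but with 3 libraries per group they do not exclude it. Mrps17, with 90 counts, is limited by depth.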
